A study of Mus musculus with 32 samples.

Results

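The 10 genes described here mark layer 6 or layer 5 intratelencephalic neurons of the mouse cortex, and they were followed across all 32 libraries and 10 groups of a study of layer 5b neurons in a model of amyotrophic lateral sclerosis (ALS). They were chosen by symbol from the gene count tables, as 6 layer 6 markers (Foxp2, Tle4, Syt6, Ntsr1, Cplx3 and Nxph4) and 4 layer 5 intratelencephalic markers (Etv1, Deptor, Rspo1 and Il1rapl2), and all 10 were found among 24091 genes. The measurement was translating ribosome affinity purification (TRAP): a bacTRAP transgene expresses an EGFP-tagged ribosomal protein L10a in the cells of a driver gene, and an antibody to EGFP pulls down their ribosome-bound mRNA (the IP), while input is RNA of the whole tissue. Per the labels, Gprin3-bacTRAP ES152 marks lower layer 5b and Colgalt2-bacTRAP DU9 marks upper layer 5b. All mice were adults aged 8 to 17 weeks.

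The baseline groups, which are labelled wild type and carry a bacTRAP transgene, were 2 IPs and 3 inputs of the Gprin3 line and 2 IPs and 2 inputs of the Colgalt2 line, from primary motor cortex (M1). The ALS groups came from bacTRAP mice crossed to SOD1*G93A, which carry mutant human SOD1, and from their wild-type (WT) littermates. Gprin3 IPs numbered 3 with the mutation and 2 WT. Colgalt2 IPs numbered 4 with the mutation and 3 WT. Inputs of M1, all from the Gprin3 line, numbered 6 with the mutation and 5 WT. Characteristics give whole cortex for the 7 ALS Colgalt2 IPs, while their source names read M1, and no input of that tissue was analysed here. No label says that libraries of a group came from separate animals, so the p-values measure the spread between these samples, which may be technical.

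Layer 6 holds corticothalamic neurons, which project to the thalamus, and a thin deep band, layer 6b. Layer 5 intratelencephalic neurons project within the cortex and to the striatum, and they lie among the extratelencephalic layer 5b neurons that project to the brainstem and spinal cord and degenerate in ALS. Several of these markers are known in more than 1 class of neuron.

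Syt6 and Etv1 were the members that separated the lines most clearly in opposite directions, so 250 bases before the first of each gene's starts in the RefSeq promoter table are shown, on the gene's strand, on GRCm38.p6. Capitals mark CpG dinucleotides. The Syt6 stretch is chr3:103574995-103575244 and the Etv1 stretch chr12:38779832-38780081, both on the plus strand. The GENCODE gene spans start at 103575231 for Syt6 and 38779380 for Etv1, so the Syt6 stretch runs past that start and the Etv1 stretch lies within the gene.
Syt6: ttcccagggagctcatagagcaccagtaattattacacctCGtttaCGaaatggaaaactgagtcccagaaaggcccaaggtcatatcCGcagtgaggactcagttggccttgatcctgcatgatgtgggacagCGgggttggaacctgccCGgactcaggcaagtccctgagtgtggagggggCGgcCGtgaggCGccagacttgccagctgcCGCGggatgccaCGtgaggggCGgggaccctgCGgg
Etv1: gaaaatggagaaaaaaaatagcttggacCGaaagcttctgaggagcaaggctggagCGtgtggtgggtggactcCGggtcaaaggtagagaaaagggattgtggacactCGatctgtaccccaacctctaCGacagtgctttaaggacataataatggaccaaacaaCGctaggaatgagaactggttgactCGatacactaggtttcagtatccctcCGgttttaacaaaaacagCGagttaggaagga

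The Syt6 stretch had a GC content of 60.4% with 13 CpG, and the Etv1 stretch 46.4% with 9 CpG, against a median of 6 CpG over all RefSeq windows. Promoter windows were matched for 7 of the 10 members. In windows of 300 bases, which run on past the start, 3 motifs were searched on both strands: the T-box motif GGTGTGA, the ETS core CCGGAA and the cyclic AMP response element TGACGTCA. They occur in 3.98%, 14.9% and 1.79% of all windows. None was found in a window of Syt6 or Etv1, and a T-box motif was found in the window of Il1rapl2.

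The libraries held 10863628 to 77220890 counts assigned to genes. Levels below are CPM, counts scaled to a library total of 1e+06, and levels of different genes are compared only per kilobase of exon. Means over the 32 libraries were 17.3 CPM per kilobase for Etv1, 15.2 for Tle4, 8.77 for Deptor, 6.03 for Syt6 and 5.36 for Rspo1. They were 2.1 for Cplx3, 1.95 for Il1rapl2, 1.52 for Foxp2, 0.823 for Ntsr1 and 0.265 for Nxph4. As a check of the labels, the driver Colgalt2 ran from 79.4 to 131 CPM in the 9 Colgalt2 IPs and from 4.87 to 8.8 CPM in the 7 Gprin3 IPs, while the driver Gprin3 ran from 23.7 to 49.7 CPM in the 7 Gprin3 IPs and from 16.5 to 37.1 CPM in the 9 Colgalt2 IPs. Sod1 counts were higher in SOD1*G93A than in WT IPs of each line without overlap, and overlapped between the inputs (357 to 446 against 310 to 385 CPM). The baseline libraries, labelled wild type, had 226 to 801 CPM, with 470 and 801 CPM in the Gprin3 IPs, so the Sod1 level checks the genotype labels within the ALS IPs alone.

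Markers of other cell types differed between the libraries, and this may bear on the comparisons below. The summed level of 30 astrocyte, oligodendrocyte and microglia markers was 3224 to 4774 CPM over all inputs. It was 1089 and 1104 CPM in the baseline Gprin3 IPs, 2143 and 3062 CPM in the WT Gprin3 IPs, and 976 to 998 CPM in the SOD1*G93A Gprin3 IPs. In the ALS Colgalt2 IPs it was 1572 to 3349 CPM for WT and 1382 to 2179 CPM for SOD1*G93A. The baseline Colgalt2 IPs stood apart from each other, at 3380 and 2097 CPM for glial markers and 236 and 94.7 CPM for 11 vascular markers. Of the 30 glial markers, Tmem119 alone was at 0, in the baseline Gprin3 IPs. In the Gprin3 IPs the summed level of 12 interneuron markers moved the other way, above input. For Gprin3 IPs it reached 2644 and 2736 CPM at baseline, 2015 and 2101 CPM in WT mice of the ALS set and 2138 to 2397 CPM with the mutation. It was 1462 to 1794 CPM over all inputs and 1000 to 1909 CPM over the Colgalt2 IPs. In the ALS Colgalt2 IPs it lay below all inputs, at 1035 to 1107 CPM for WT and 1000 to 1144 CPM for SOD1*G93A. Interneuron markers were higher in Gprin3 IP than in input for 5 of 12 at baseline, 6 in WT and 8 in SOD1*G93A, and lower for 2 in each. Their median log2 fold changes were 0.63, 0.44 and 0.79. Of all genes, 13.9%, 20.6% and 24.7% were called higher in these comparisons, so the counts cannot be ranked against each other. Sst, a neuropeptide of interneurons, was at 661 CPM in the baseline Gprin3 IPs against 99.3 CPM in their inputs. The part of these cells in the results below was not tested. In bulk RNA, fewer cells of a type and less RNA per cell cannot be told apart.

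**Figure D1:**
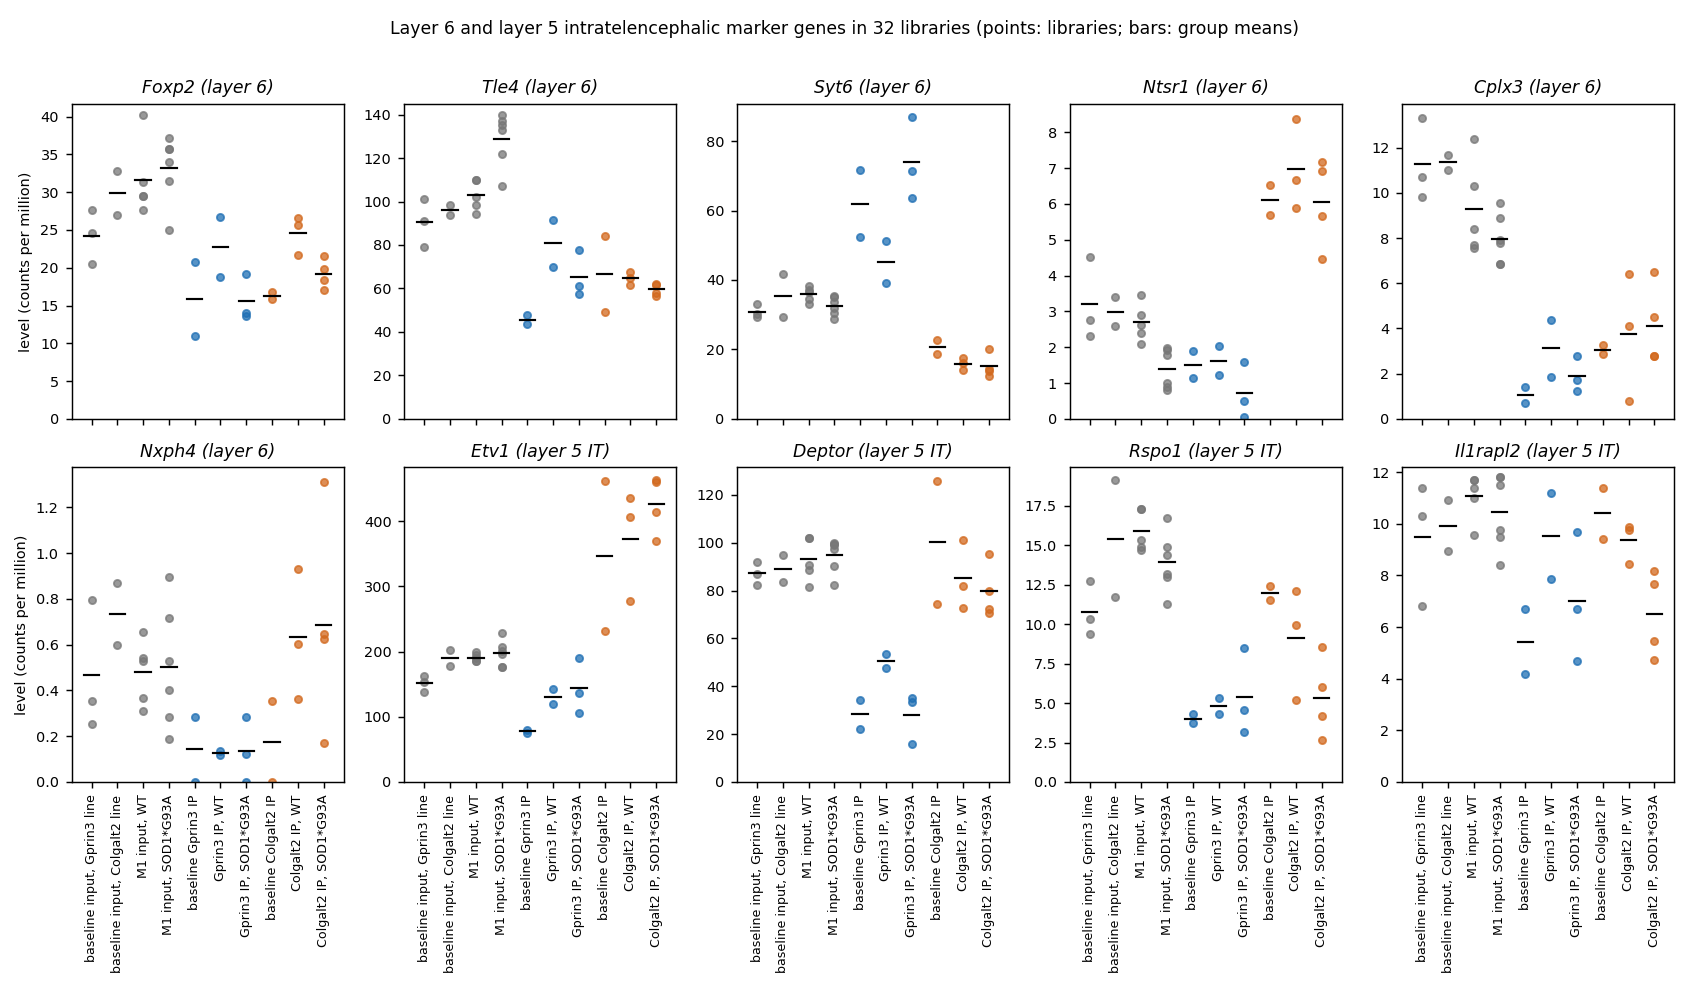
Level of each member in CPM (vertical axis, from 0) in every library, by group; points are libraries, black bars are group means, grey is input, blue is Gprin3 IP and orange is Colgalt2 IP. By group mean, Syt6 is highest in the Gprin3 IPs and lowest in the Colgalt2 IPs, and Etv1 shows the opposite order.

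At baseline the Gprin3 IPs were high in Syt6 and low in most other members, compared with input of the same line. Syt6 encodes a synaptotagmin, a family of membrane proteins of vesicle traffic, and lies at chr3:103575231-103645569. Its level was 71.7 and 52.3 CPM in the IPs and 29.3, 30.2 and 33.2 CPM in the inputs. Both IPs lay above all 3 inputs, and the log2 fold change was 1.23 ± 0.19 (SE; edgeR quasi-likelihood test, adjusted p = 0.00059). Of the 10 members 9 passed the filter on low counts (Nxph4 did not), and 1 rose and 5 fell at an adjusted p under 0.05, where 29.2% of all genes tested were called, 13.9% higher and 15.3% lower. These calls are read against that background. Separation of the groups was common too. Of 13654 genes averaging at least 1 CPM in either group, 57.3% did not overlap, and neither did 8 of the 10 members.

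Cplx3, a complexin that regulates vesicle fusion and marks layer 6b, fell furthest. It was at 0.685 and 1.42 CPM in the Gprin3 IPs and at 9.84, 10.7 and 13.3 CPM in the inputs, with no overlap (log2 fold change -3.21 ± 0.43, adjusted p = 0.000225). Tle4, a transcriptional corepressor of corticothalamic neurons, was at 43.7 and 47.7 CPM in the IPs against 91.2, 79.2 and 101 CPM in the inputs (-0.77 ± 0.17, adjusted p = 0.0046). The groups did not overlap for either gene.

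Among the layer 5 intratelencephalic members, Deptor, an inhibitor of mTOR signalling, was at 34.2 and 22.3 CPM in the Gprin3 IPs and at 92.1, 82.4 and 87 CPM in the inputs. Its log2 fold change was -1.40 ± 0.21 (edgeR, adjusted p = 0.000417). Etv1, an ETS-family transcription factor long used to mark layer 5, was at 75.4 and 80.2 CPM in the IPs and at 154, 138 and 162 CPM in the inputs (-0.74 ± 0.14, adjusted p = 0.0024). Rspo1, a secreted enhancer of Wnt signalling, was at 3.71 and 4.31 CPM against 9.37, 12.7 and 10.3 CPM (-1.21 ± 0.33, adjusted p = 0.015). Each of these genes was lower in every IP than in any input, where 57.3% of genes compared separated in one direction or the other. The Rspo1 call ended without input replicate 2 (adjusted p = 0.0771) or input replicate 3 (adjusted p = 0.0597).

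Foxp2, Ntsr1 and Il1rapl2 did not pass the threshold in the Gprin3 IPs. Foxp2, a forkhead transcription factor of corticothalamic neurons, averaged 15.9 CPM in the IPs and 24.2 CPM in the inputs (-0.40 ± 0.27, adjusted p = 0.286). Its IPs differed from each other, at 11 and 20.7 CPM. Ntsr1, a neurotensin receptor whose promoter is used to reach layer 6 corticothalamic neurons, averaged 1.52 against 3.2 CPM (adjusted p = 0.286). Il1rapl2, an X-linked relative of the interleukin 1 receptor accessory proteins, averaged 5.42 against 9.5 CPM (adjusted p = 0.226).

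The Colgalt2 IPs at baseline gave no member past the threshold against input of their line, with all 10 tested and 2.65% of all genes called. The nearest was Cplx3, at 2.85 and 3.27 CPM in the IPs and 11 and 11.7 CPM in the inputs (-1.59 ± 0.37, adjusted p = 0.0624). Etv1 was at 231 and 462 CPM in the IPs and at 178 and 202 CPM in the inputs. Both IPs lay above both inputs, but the IPs also lay far apart, and the log2 fold change of 1.18 ± 0.38 had an adjusted p of 0.116. Ntsr1 was at 6.54 and 5.69 CPM against 3.4 and 2.59 CPM (1.29 ± 0.42, adjusted p = 0.117), again with both IPs above both inputs. Such separation was common here, at 61.4% of 13720 genes at the same cutoff on mean level, and in 7 members. Nxph4, which lay under that cutoff, is among these members. The count rests on the libraries: 7 members passed without IP replicate 1, where 7202 of 14918 genes were called, and 4 without IP replicate 2, where 4952 of 14648 genes were called, in fits where the lone IP is assumed to vary like the inputs. In the authors' deposited table Etv1 (log2 fold change 1.14, adjusted p = 0.000889) and Cplx3 (-1.62, adjusted p = 0.000902) passed.

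**Figure D2:**
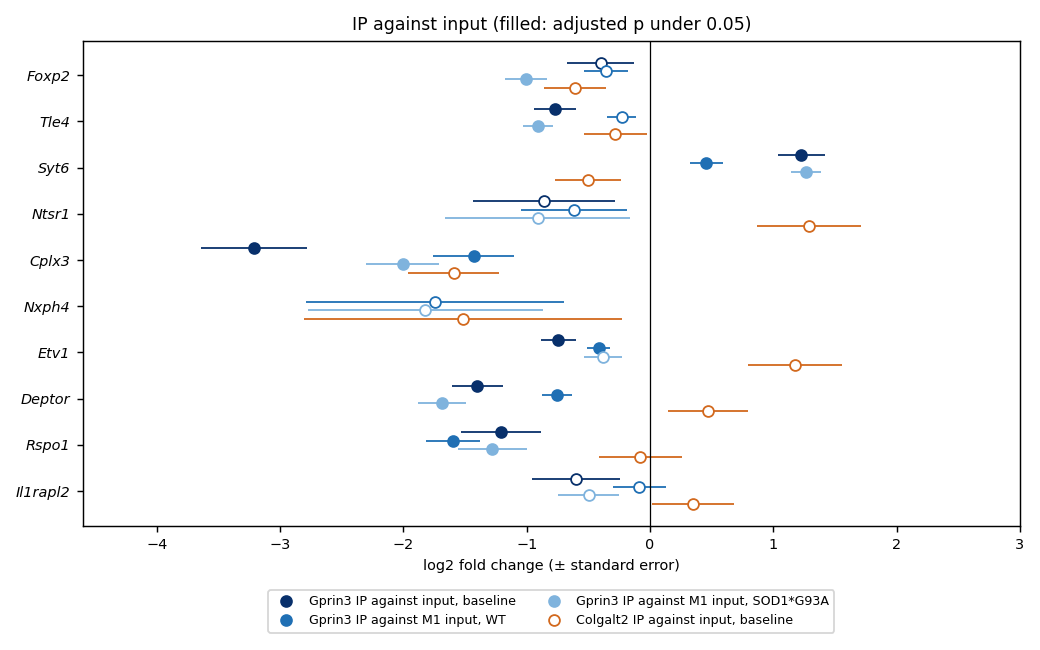
Log2 fold change of IP over input for each member (horizontal axis, bars are standard errors) in 4 comparisons; filled points have an adjusted p under 0.05 in edgeR. Syt6 lies above 0 in all 3 Gprin3 comparisons, Etv1, Deptor and Rspo1 lie below 0 there, and no Colgalt2 point is filled.

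Compared between lines, Gprin3 and Colgalt2 IPs at baseline differed in 3 of the 9 members tested, 1 higher and 2 lower for Gprin3, where 6.67% of all genes were called (2.22% higher, 4.45% lower). Syt6 was higher in the Gprin3 IPs, at 71.7 and 52.3 CPM against 22.7 and 18.8 CPM (log2 fold change 1.59 ± 0.32, edgeR, adjusted p = 0.0113). Etv1 was lower there, at 75.4 and 80.2 CPM against 231 and 462 CPM (-2.18 ± 0.34, adjusted p = 0.00269). Deptor was lower too, at 34.2 and 22.3 CPM against 74.6 and 126 CPM (-1.84 ± 0.35, adjusted p = 0.00917). No library of one line reached the values of the other for any of these genes. The same held for 54.3% of 13372 genes at the same cutoff on mean level, and for 8 members.

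With 2 IPs a line, each of these calls depends on a single library. Without Gprin3 IP replicate 1 the adjusted p was 0.154 for Syt6 and 0.0588 for Etv1, and without replicate 2 it was 0.125 for Deptor. Rspo1 (4.01 against 11.9 CPM, adjusted p = 0.0797) and Ntsr1 (1.52 against 6.11 CPM, adjusted p = 0.122) did not pass. Nor did Cplx3 (1.05 against 3.06 CPM, adjusted p = 0.371). In the authors' deposited table Rspo1 (log2 fold change -1.61, adjusted p = 0.00016) and Ntsr1 (-2.04, adjusted p = 0.00167) passed. Cplx3 (-1.59, adjusted p = 0.00505), Syt6, Etv1 and Deptor passed there too. Glial and vascular markers moved with the comparison: 4 of 11 astrocyte and 8 of 11 vascular markers were lower in the Gprin3 IPs. Interneuron markers were higher there for 5 of 12 (median log2 fold change 1.28), among them Sst at 661 against 42.3 CPM and Pvalb at 188 against 51.9 CPM. Their part in the result was not tested.

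Inputs of the lines gave no member past the threshold, with all 10 tested and 0.0469% of all genes called. Etv1 was at 154, 138 and 162 CPM in the Gprin3-line inputs and at 178 and 202 CPM in the Colgalt2-line inputs (log2 fold change -0.32 ± 0.13, adjusted p = 0.999). The difference in enrichment over input between the lines was tested as an interaction over the 9 baseline libraries, where 8.69% of all genes were called (3.23% higher, 5.46% lower). Syt6 differed by 1.81 ± 0.33 on the log2 scale (edgeR, adjusted p = 0.00596), Etv1 by -1.84 ± 0.38 (adjusted p = 0.0117) and Deptor by -1.79 ± 0.38 (adjusted p = 0.0136), Gprin3 minus Colgalt2. This comparison shares its IPs with the direct one. Leaving out either Colgalt2 input ended the Etv1 and Deptor calls (adjusted p from 0.0508 to 0.0654).

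Gprin3 IPs of the ALS set were compared with M1 input of the same genotype. In WT, 1 member rose and 4 fell of 10 tested, where 40.4% of all genes were called (20.6% higher, 19.8% lower). Syt6 was at 51.2 and 39 CPM in the IPs and at 33.1 to 38.3 CPM, median 36.4 CPM, in the 5 inputs (log2 fold change 0.46 ± 0.14, edgeR, adjusted p = 0.0113). The lower IP lay just above the highest input, and 52.2% of 13564 genes at the same cutoff on mean level did not overlap either. The Syt6 call ended without WT IP replicate 1 (adjusted p = 0.283) and in a joint fit of all 32 libraries (adjusted p = 0.0611), as did that of Etv1 in the joint fit (adjusted p = 0.154). Deptor, at 47.8 and 53.6 CPM against 81.7 to 102 CPM, fell by 0.75 on the log2 scale (adjusted p = 6.09e-05), and Rspo1, Cplx3 and Etv1 also fell (-1.60, -1.43 and -0.42).

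In SOD1*G93A, 1 member was higher in the Gprin3 IPs and 5 were lower of 10 tested, where 49.8% of all genes were called (24.7% higher, 25.1% lower). Syt6 was at 86.9, 63.6 and 71.4 CPM against 28.8 to 35.4 CPM in the 6 inputs (1.27 ± 0.12, adjusted p = 1.54e-06). Foxp2 was at 19.2, 13.6 and 14 CPM against 25 to 37.2 CPM (-1.01 ± 0.17, adjusted p = 0.000229). Tle4 was at 77.6, 60.9 and 57.3 CPM against 107 to 140 CPM (-0.91 ± 0.12, adjusted p = 3.07e-05). No IP of either gene reached the lowest input, and 45.5% of 13540 genes at the same cutoff on mean level did not overlap either. Cplx3, Deptor and Rspo1 fell as well (-2.01, -1.69 and -1.28), and Etv1 did not pass (-0.38 ± 0.15, adjusted p = 0.0555).

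Other markers of the same layers were read from lists chosen with earlier results of these data known. Of 14 other layer 6 genes tested at baseline, none was higher and 6 were lower in the Gprin3 IPs, with a median log2 fold change of -0.77 against -0.04 over all genes. Rprm (4.2 against 26.1 CPM, -2.42), Sla (2.66 against 14 CPM, -2.18), Sulf1 (5.04 against 15.2 CPM, -1.37) and Hs3st4 (38.9 against 101 CPM, -1.15) had the largest changes. Sulf1 encodes an extracellular sulfatase and Hs3st4 a sulfotransferase, both acting on heparan sulfate. Of 12 other layer 5 intratelencephalic genes, 5 were higher and 2 lower (median 0.70). Batf3 (6.22 against 0.924 CPM, 2.98), Tcerg1l (32.3 against 11.3 CPM, 1.73) and Hsd11b1 (14.7 against 8 CPM, 1.10) rose, and Pld5 fell (5.67 against 15.4 CPM, -1.23). Batf3 is a leucine zipper transcription factor, and Hsd11b1 regenerates active glucocorticoids. Among the members, 3 of the 4 layer 5 intratelencephalic genes fell. Over all genes tested in this comparison, 13.9% were called higher and 15.3% lower.

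In the ALS set 2 of 14 other layer 6 genes were higher and 3 lower in WT Gprin3 IPs than in input (median log2 fold change -0.17), and none was higher and 10 were lower in SOD1*G93A (median -1.30). Of the other layer 5 intratelencephalic genes 7 of 13 were higher and 2 lower in WT (median 0.47), and 5 of 11 were higher and 3 lower in SOD1*G93A (median 0.66). Rprm was lower in both, at 6.62 against 27.3 CPM in WT (-1.92) and 3.05 against 28.4 CPM in SOD1*G93A (-3.14). Hsd11b1 was higher in both, at 16 against 7.25 CPM (1.27) and 24.2 against 6.26 CPM (2.02). Astrocyte markers were lower for 7 of 11 in WT and 10 of 11 in SOD1*G93A. Of all genes, 20.6% were called higher and 19.8% lower in WT, and 24.7% higher and 25.1% lower in SOD1*G93A.

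Markers of extratelencephalic neurons of layer 5b, the layer both lines are labelled with, had similar median log2 fold changes over input at baseline. The medians were 1.55 for Gprin3 and 1.48 for Colgalt2. In the Gprin3 IPs 15 of 16 were called higher, where 13.9% of all genes were. In the Colgalt2 IPs 5 of 16 were called higher, where 2.65% of all genes were called in either direction. With such different shares, these counts cannot be set against each other. In the Colgalt2 IPs at baseline 1 of 14 other layer 6 genes fell, Hs3st4 at 29.4 against 112 CPM (-1.67, adjusted p = 0.0389), and 1 of 10 other layer 5 intratelencephalic genes rose, Sorcs2 at 46 against 16 CPM (1.80, adjusted p = 0.0389). Between the IPs of the lines, Grik3, a kainate receptor subunit, was the called gene of the other layer 6 list, at 54.2 CPM for Gprin3 and 119 CPM for Colgalt2 (-1.14, adjusted p = 0.0273). None of 11 other layer 5 intratelencephalic genes was called there.

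The effect of SOD1*G93A within a cell type was the study's question for the ALS set. In the Gprin3 IPs no member passed the threshold, with 9 tested and 8.15% of all genes called. Syt6 was at 86.9, 63.6 and 71.4 CPM with the mutation and at 51.2 and 39 CPM in WT, without overlap (0.71 ± 0.22, edgeR, adjusted p = 0.0712). Deptor was at 15.7, 33.6 and 35 CPM against 47.8 and 53.6 CPM, also without overlap (-0.87 ± 0.30, adjusted p = 0.109). Such separation was common, as 44% of 13167 genes at the cutoff on mean level used above did not overlap here. It held for 2 members. In the authors' deposited table the adjusted p was 0.0358 for Syt6 (log2 fold change 0.75) and 0.0309 for Deptor (-0.83).

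Glial markers moved with genotype in these same IPs: 6 of 11 astrocyte and 7 of 10 oligodendrocyte markers were lower in SOD1*G93A, and none was higher. Of 13 other layer 6 genes tested, 3 fell: Tbr1, a transcription factor of layer 6 (108 against 202 CPM, -0.91, adjusted p = 0.00541), Nr4a2 (12.5 against 33.2 CPM, -1.42, adjusted p = 0.0255) and Zfpm2 (14.5 against 30.9 CPM, -1.09, adjusted p = 0.0301). Of 12 other layer 5 intratelencephalic genes, 1 rose and 1 fell. The gene that rose was Pde1a, a phosphodiesterase (1570 against 1130 CPM, 0.47, adjusted p = 0.0314). Over all 13726 genes tested, 401 were called higher and 717 lower, 8.15% together. The part of glial RNA in these differences was not tested.

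In the Colgalt2 IPs, with 3 WT and 4 SOD1*G93A libraries, no gene passed in edgeR (0%, with 1073 genes at an unadjusted p under 0.05, and 71 genes in DESeq2), and no member passed in either. Etv1 was at 460, 414, 463 and 369 CPM with the mutation against 278, 435 and 406 CPM (0.18 ± 0.18, adjusted p = 0.859). Syt6 stayed low in all 7, at 14.4, 20, 12.2 and 13.9 CPM with the mutation against 17.5, 14.1 and 16.2 CPM. Rspo1 averaged 5.34 CPM with the mutation and 9.1 CPM without it (-0.80 ± 0.40, adjusted p = 0.695), and the groups overlapped. Foxp2 was lower without overlap, at 17 to 21.6 against 21.7 to 26.6 CPM (adjusted p = 0.718). So was Il1rapl2, at 4.71 to 8.15 against 8.45 to 9.86 CPM (adjusted p = 0.737). Of 13344 genes averaging at least 1 CPM in either group, 7.59% did not overlap, and neither did these 2 members.

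In M1 input Tle4 rose in SOD1*G93A, the 1 member of 10 past the threshold where 3.33% of all genes were called (2.13% higher, 1.2% lower). It ran from 107 to 140 CPM, median 134 CPM, in the 6 SOD1*G93A inputs and from 94.1 to 110 CPM, median 102 CPM, in the 5 WT inputs. The groups overlapped at the edge, and the log2 fold change was 0.37 ± 0.08 (edgeR, adjusted p = 0.00835). The call was lost in a joint fit of all 32 libraries (adjusted p = 0.682), and in the authors' deposited table the adjusted p was 0.0662. Ntsr1 averaged 1.4 CPM with the mutation and 2.69 CPM without it (-0.87 ± 0.30, adjusted p = 0.11). Its groups did not overlap, at 0.808 to 1.97 against 2.1 to 3.45 CPM. Of 13433 genes averaging at least 1 CPM in either group, 3.83% did not overlap, and Ntsr1 was the 1 such member.

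**Figure D3:**
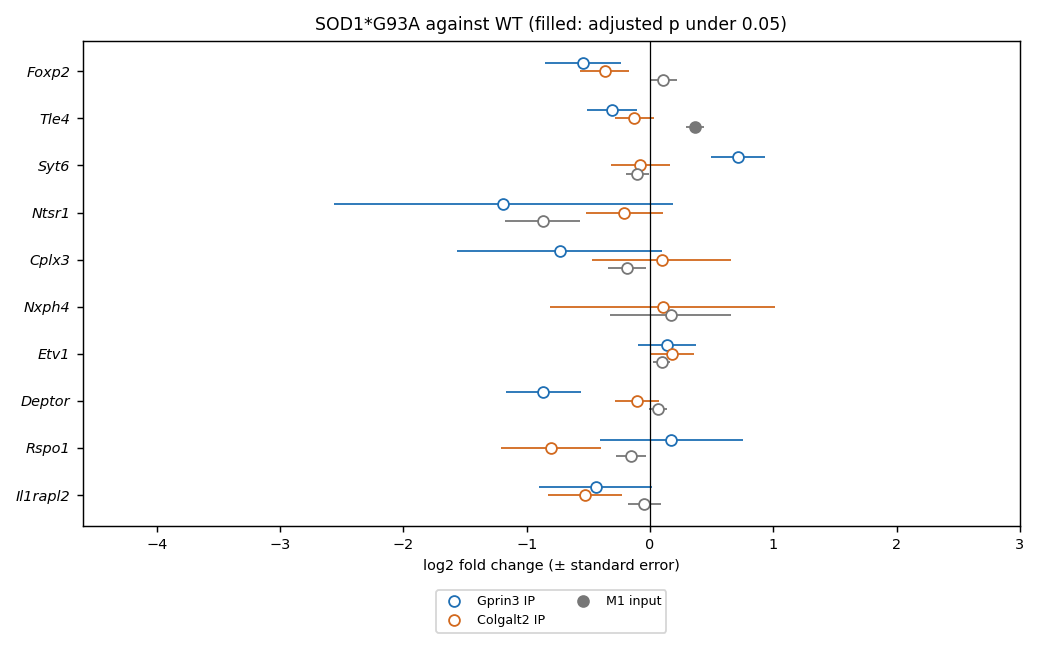
Log2 fold change of SOD1*G93A against WT for each member (horizontal axis, bars are standard errors) in Gprin3 IPs, Colgalt2 IPs and M1 inputs; filled points have an adjusted p under 0.05 in edgeR. The filled point is Tle4 in M1 input, at 0.37.

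Whether the SOD1*G93A effect differed between Gprin3 IPs and M1 input was tested as an interaction over 16 libraries, where 18.2% of all genes were called (6.78% higher, 11.4% lower). Syt6 differed by 0.80 ± 0.19 on the log2 scale (edgeR, adjusted p = 0.005), Deptor by -0.94 ± 0.24 (adjusted p = 0.00839) and Tle4 by -0.68 ± 0.18 (adjusted p = 0.00856). Without WT Gprin3 IP replicate 2, which had the highest glial level of the 5 ALS Gprin3 IPs at 3062 CPM, none of the 3 passed (adjusted p 0.0757, 0.0719 and 0.148). Between Gprin3 and Colgalt2 IPs the SOD1*G93A effect differed past the threshold for no member, where 0.0775% of all genes were called. The differences were 0.82 ± 0.33 for Syt6 (adjusted p = 0.437) and -0.73 ± 0.34 for Deptor (adjusted p = 0.515), and tissue and line cannot be told apart there.

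Etv1 and Syt6 moved apart between the IPs of the lines in all 3 sets. In the ALS sets tissue and line cannot be told apart, since characteristics give whole cortex for the Colgalt2 IPs. The ratio of Etv1 to Syt6 CPM within a library ran from 1.05 to 1.53 in Gprin3 IPs at baseline, 2.35 to 3.63 for WT mice of the ALS set and 1.66 to 2.19 with the mutation. It ran from 10.2 to 24.5 in Colgalt2 IPs at baseline, 15.9 to 30.9 for WT mice of the ALS set and 20.7 to 38 with the mutation. Inputs lay between, from 4.29 to 7.2. This ratio was chosen after its values were seen, and the genes differ in length, so its absolute size has no meaning.

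**Figure D4:**
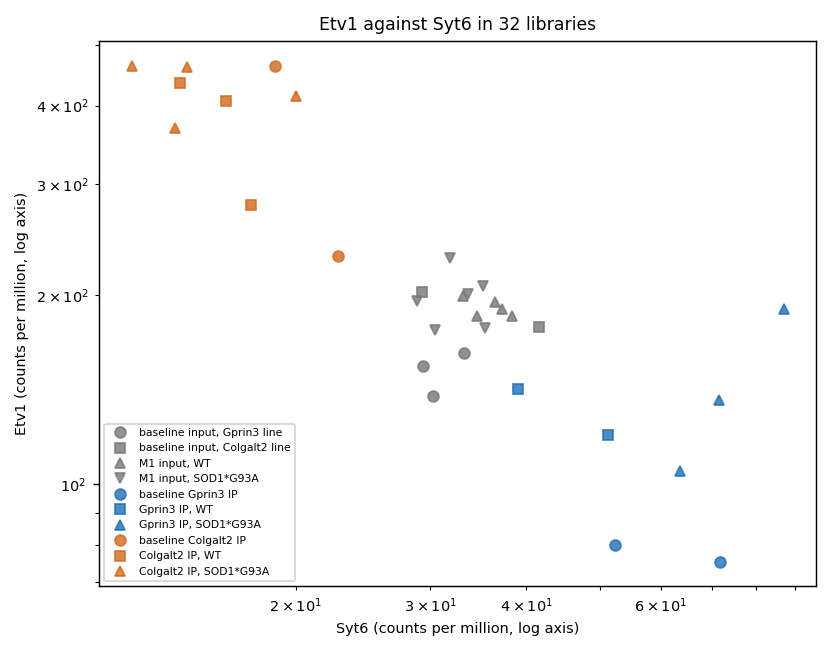
Etv1 level against Syt6 level in CPM (both axes logarithmic) in the 32 libraries, with symbols by group. Gprin3 IPs (blue) lie toward high Syt6 and low Etv1, and Colgalt2 IPs (orange) at low Syt6 and high Etv1. Inputs (grey) lie between them in the ratio of the genes, while on each axis alone some Gprin3 IPs overlap inputs. The ALS Colgalt2 IPs are whole cortex by their characteristics.

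Ordered by group mean, Syt6 was highest in SOD1*G93A Gprin3 IPs (74 CPM), then baseline Gprin3 IPs (62 CPM) and WT Gprin3 IPs (45.1 CPM), and the first 2 overlapped. The 4 input groups followed at 30.9 to 35.9 CPM with overlapping neighbours, and the Colgalt2 IPs came last at 15.1 to 20.8 CPM. Etv1 was highest in the 3 Colgalt2 IP groups (346 to 426 CPM, overlapping), then inputs (151 to 198 CPM), and lowest in baseline Gprin3 IPs (77.8 CPM). Ntsr1 had the same leading groups, with 6.04 to 6.97 CPM in Colgalt2 IPs and at most 3.2 CPM elsewhere. For the ALS Colgalt2 IPs, whole cortex by their characteristics, tissue and line cannot be told apart in these orders. Nxph4, a neurexophilin of layer 6b, averaged under 1 CPM in every group, with 3 libraries at 0 and at most 43 counts in a library. It passed the threshold in none of the comparisons that tested it. Nxph4 was lower without overlap in the WT Gprin3 IPs (0.134 and 0.119 CPM) than in WT input (0.309 to 0.656 CPM). The log2 fold change was -1.74 ± 1.05 (edgeR, adjusted p = 0.199). In that comparison 52.2% of genes averaging at least 1 CPM in either group did not overlap. Neither did 9 members, counting Nxph4, which is under that cutoff.

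Across the 32 libraries, genes with the most similar pattern to a member were ranked by Pearson's r of log2(CPM + 1) among 10254 genes averaging at least 5 CPM. The points share lines and glial content, so the values are descriptive. Syt6 was most like Pvalb (0.920), Cnr1 (0.909) and Krt80 (0.909), Etv1 like Rnf150 (0.907), Spred3 (0.883) and Fam193a (0.881), and Deptor like H2-T24 (0.936), Arhgap25 (0.913) and Fyco1 (0.907). Tle4 was most like Rora (0.957), and Foxp2 like Fgfr2 (0.882), Plekhb1 (0.857) and Gatm (0.850). Between members, r was -0.859 for Syt6 with Etv1, -0.836 for Syt6 with Ntsr1 and 0.831 for Foxp2 with Tle4.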

How the data were processed

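Libraries were TruSeq v2, prepared from 15 ng of RNA after NuGEN Ovation V2 amplification, per the labels' protocols. The submitters' processing notes name the mm10 build, the aligner Subread, featureCounts and DESeq2 1.26.0; other versions are not given in the sources used here. The deposited files hold raw counts per gene. From the authors' deposited comparison tables, log2 fold changes, their standard errors and adjusted p-values were copied for the members. Their 36 columns of values per library were not used. Rows naming no gene (9 features, holding 0.0201% of the counts or less in any library) were removed.

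Groups follow the labels. Each comparison was fitted on its own groups with edgeR 4.0.16 in R 4.3.3 (filterByExpr, TMM, robust quasi-likelihood F test), with Benjamini-Hochberg adjustment over all genes tested and a threshold of 0.05. CPM use library totals with no normalization factor. Exon lengths come from GENCODE for GRCm38, whose strand-blind overlaps touch Syt6 and Deptor. The scripts were tested on simulated data. The members, lists and tests were chosen with earlier results of these data known. All members were named, and from other lists up to 4 called genes with the largest change and at least 5 CPM in the higher group. The values of 1 gene of these lists are not reported here. Alternatives were size factors and Wald test of DESeq2 1.42.0, no filter, a mean of at least 5 CPM, replicate block, a joint fit of all 32 libraries, a length trend taken out, the sequenced read as a covariate, and each library left out.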

Additional observations from a re-analysis of the deposited data

Results flagged for a closer look

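The WT M1 input replicate 5 had 40.2 CPM of Foxp2, with the nearest of the other 4 WT inputs at 31.3 CPM, a gap that was large for the range of that group. It was the only such gap among 30 group and gene pairs examined, where chance gives about 1 in 20.

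Differences of effect between groups were found by interaction tests in edgeR. Enrichment over input differed between the Gprin3 and Colgalt2 lines for Syt6 (1.81 on the log2 scale), Etv1 (-1.84) and Deptor (-1.79). The SOD1*G93A effect differed between Gprin3 IPs and M1 input for Tle4 (-0.68), Syt6 (0.80) and Deptor (-0.94).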

How the results depend on the processing

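Over 48 member and comparison pairs called in any setting, 680 alternative fits left 611 on the same side of the threshold with the same direction, moved 49 past it and 19 out of it, and reversed 1: Deptor in Colgalt2 IP against input ranged from -0.08 without IP replicate 2 to 0.81 without IP replicate 1. The number of members past the threshold for Colgalt2 IP against input (0) became 2 with no low-count filter, with DESeq2's Wald test, with the replicate block and in the joint fit of all 32 libraries, and 1 with a mean of at least 5 CPM. For SOD1*G93A in Gprin3 IPs (0) it became 2 with no low-count filter, in the replicate block and in the joint fit, and 1 with DESeq2's Wald test. The joint fit gave 5 for Gprin3 against Colgalt2 IP (3), 3 for Gprin3 IP against input in WT (5) and 0 for M1 input (1), and DESeq2's Wald test gave 5 for the enrichment difference (3). The cause was not tested. Leaving out each library in turn gave 5 to 8 members for baseline Gprin3 IP, 0 to 7 for Colgalt2 IP, 1 to 3 between IPs, 4 to 7 and 6 to 8 for Gprin3 IP in WT and SOD1*G93A, 0 to 1 for SOD1*G93A in Gprin3 IPs, 1 to 4 for the enrichment difference and 0 to 4 for the SOD1*G93A difference from input. Counts of all genes called also moved by over 1.5 times. DESeq2's Wald test gave 1873 for Colgalt2 IP against input (378), 1558 between IPs (907), 1981 for SOD1*G93A in Gprin3 IPs (1118), 904 in M1 input (477), 71 in Colgalt2 IPs (0), 2162 for the enrichment difference (1307) and 135 for the SOD1*G93A difference between lines (12). In the same order as far as they moved, no low-count filter gave 1742, 1557, 1720, 2142 and 51 (not M1 input or Colgalt2 IPs). The joint fit gave 3017, 4051, 2880, 0, 189, 1990 and 483, with 4000 for Gprin3 IP in WT (6037) and 1497 for the SOD1*G93A difference from input (2819). A mean of at least 5 CPM gave 639 for Colgalt2 IP against input. Taking out the length trend gave 0 for Colgalt2 IP against input, 306 between IPs, 584 for SOD1*G93A in Gprin3 IPs, 774 for the enrichment difference and 1 between lines. The replicate block gave 1506 for Colgalt2 IP against input, 1748 for SOD1*G93A in Gprin3 IPs, 635 for the enrichment difference, 1 between lines, also its count with a mean of at least 5 CPM and with DESeq2 size factors, and 4142 for Gprin3 IP in SOD1*G93A (7202). Single libraries also moved these counts and the background shares: leaving each out gave 2285 to 5932 for baseline Gprin3 IP against input (4242), 1 to 7202 for Colgalt2 IP against input, 135 to 1711 between IPs, 142 to 1664 for SOD1*G93A in Gprin3 IPs, 180 to 470 in M1 input, 246 to 2516 for the enrichment difference, 1 to 146 between lines and 1405 to 3450 for the SOD1*G93A difference from input. Taking out the length trend also ended the calls of Etv1 in the enrichment difference (adjusted p = 0.0852) and of Deptor in the SOD1*G93A difference from input (adjusted p = 0.0647).

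No label says that a replicate number marks a shared animal or day. Same-numbered samples correlated from -0.168 to 0.180 in their deviations. In 4 comparisons with 2 pairs both samples correlated best with their own number. In Colgalt2 IP against input and in WT Gprin3 IP against M1 input neither did. Where both groups hold 2 libraries, the deviations mirror each other, so the 2 correlations are the same value. In no comparison with 3 or more pairs did every sample correlate best with its own number, so a pairing was not established. The replicate block gave 4 members for Gprin3 IP in WT, where the Syt6 call ended (adjusted p = 0.098), 7 in SOD1*G93A and 3 for the enrichment difference. Nxph4 has few counts.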

Other observations

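Colgalt2, the driver of the upper layer 5b line, was at 52.8 and 57 CPM in the 2 baseline inputs of the Colgalt2 line and at 3.67 to 4.96 CPM in the 3 inputs of the Gprin3 line, although input is whole-tissue RNA.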
